A study of Mus musculus with 2 samples.

Results

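The 7 genes of cholesterol synthesis followed here in the cells of A20 tumours were Hmgcs1, Idi1, Fdps, Sqle, Cyp51, Msmo1 and Insig1. They were picked by gene symbol, and all 7 were found among the 28692 genes of the count tables, each with 1 Ensembl identifier. Of these, 6 encode enzymes, while Insig1 encodes a regulator of the pathway. A20 is a mouse lymphoma line of B cell origin, grown here under the skin of Balb/c mice. One arm received TAK-981, an inhibitor of the enzyme that activates SUMO for attachment to other proteins, at 7.5 mg/kg into a vein, and the other arm received only the vehicle, 20% HPbCD, a cyclodextrin. Tumours of both arms were taken 8 h later, passed through a filter, depleted of dead cells and run on the 10x Genomics 5′ kit, with 1 library per arm. The labels state neither the age and sex of the mice nor how many tumours went into a library.

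Cells make cholesterol from acetyl-CoA by the mevalonate pathway, which also supplies the isoprenoid chains used for protein prenylation, ubiquinone and dolichol. When sterol in the membrane of the endoplasmic reticulum runs low, the protein SCAP carries the transcription factor SREBP2 to the Golgi, where it is cut and released to the nucleus to switch on nearly every gene of the pathway. When sterol is plentiful, INSIG proteins hold SCAP in place, which keeps the factor inactive. Dividing lymphocytes and lymphomas need the pathway for new membrane, and in macrophages type I interferon is known to lower sterol synthesis, in part through the oxysterol made by Ch25h.

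SREBP2 acts through a short sterol response element that usually lies beside sites of NF-Y, which reads the CCAAT box, and of Sp1, which reads GC-rich boxes. RefSeq promoter windows (GRCm38.p6) were matched for 5 of the 7 genes, all but Fdps and Sqle, and the 250 bases before the start were searched on both strands. The sterol response element, searched as TCACNCCAC, was present in 1 of the 5 windows, that of Hmgcs1, at 137 bases before the start, against 1.05% of 32851 windows of the same length. A CCAAT box, searched as CCAAT, was present in 5 of 5, against 33.8% of all windows. In Idi1, Cyp51 and Msmo1 these matches lay past the earliest annotated transcript start of the gene, in transcribed sequence. A GC box, searched as GGGCGG, was also present in 5 of 5, against 32.7%. In Idi1 and Msmo1 all GC box matches likewise lay past the earliest annotated transcript start. An E-box, searched as CACGTG, was present in 1 of 5, that of Insig1, against 6.02%. None of these 4 motifs contains another, and a match is no evidence of binding. The windows of Hmgcs1, with the largest ratio of all UMIs in A20 cells below, and of Insig1, with the smallest, are printed. Letters are those of RefSeq, with the sterol response element and CCAAT boxes (ATTGG on the other strand) in capitals. Insig1 is cut to 201 bases, where an annotated transcript begins. The printed stretches cover chr13:119690101-119690350 and chr5:28071162-28071362, both on the plus strand of GRCm38.p6.
Hmgcs1: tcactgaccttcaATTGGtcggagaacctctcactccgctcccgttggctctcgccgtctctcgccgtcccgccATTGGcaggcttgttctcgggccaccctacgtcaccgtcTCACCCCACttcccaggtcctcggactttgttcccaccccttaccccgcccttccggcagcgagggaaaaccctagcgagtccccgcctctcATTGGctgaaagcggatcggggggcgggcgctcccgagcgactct
Insig1: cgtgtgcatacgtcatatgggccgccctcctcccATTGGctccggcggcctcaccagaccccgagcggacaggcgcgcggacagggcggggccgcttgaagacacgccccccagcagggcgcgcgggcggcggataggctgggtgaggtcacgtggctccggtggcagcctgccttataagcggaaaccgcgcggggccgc
Hmgcs1 held 3 CCAAT boxes around its sterol response element. Insig1 held 1 CCAAT box, 216 bases before the start, and 3 GC boxes.

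The classes were set by marker counts among barcodes with under 10% of UMIs (unique molecular identifiers, 1 per RNA molecule captured) from mitochondrial genes. A20 cells had at least 1 UMI of Cd79a and none of Cd3d, Cd3e, Cd3g or Lyz2, T cells had at least 2 UMIs of the 3 Cd3 genes together, and myeloid cells had at least 5 of Lyz2. In the TAK-981 and the vehicle library these were 1754 and 2191 A20 cells, 45 and 60 T cells, and 39 and 44 myeloid cells. All 8 B cell markers were found in the A20 cells of both libraries, but host B cells share them and were not separated. Median UMIs per A20 cell were 16195 with TAK-981 and 22309 with vehicle, those per T cell 7156 and 9068, and those per myeloid cell 8287 and 10636.5. The median mitochondrial share of A20 cells was 2.60% and 2.05%, and 376 and 124 barcodes lay at or above the 10% limit. The part of these gaps in depth and mitochondrial share in the results was not tested beyond the stratified values given below. The 2 libraries shared 11 barcode sequences. With 1 library per arm no test between arms exists: every interval is a 95% counting interval, exact for a level (Poisson) and a ratio (conditional binomial), leaves out variation between cells and between mice, and is therefore too narrow. A gene was counted as higher or lower when its level, in counts per 1000000 UMIs of the class in that library (CPM), differed at least 1.5-fold and it had at least 20 UMIs in both libraries together.

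In A20 cells all 7 genes were slightly higher with TAK-981, none of them by 1.5-fold. Their UMIs summed to 556 CPM with TAK-981 and 480 CPM with vehicle, a ratio of 1.16-fold (counting interval 1.14 to 1.18). The median log2 ratio of the 7 was 0.18, and that of all 11481 genes measured in A20 cells was 0.06, with the middle 50% of genes between -0.09 and 0.24. Of all genes measured, 6.36% were at least 1.5-fold higher and 2.20% at least 1.5-fold lower, against 0 of the 7 in either direction. All 7 log2 ratios were above 0, as were those of 59.9% of all genes measured. Of the 7 counting intervals, 6 lay above 0, a share not given here for all genes. The 7 log2 ratios ranged from 0.02 to 0.36, which placed them between the 43.6th and the 85th percentile of all genes measured.

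The first member in pathway order, Hmgcs1, makes HMG-CoA, from which mevalonate is formed. Its level in A20 cells was 90.5 CPM (2938 UMIs) with TAK-981 and 70.6 CPM (3740 UMIs) with vehicle, a log2 ratio of 0.36 (0.29 to 0.43). At full depth this was the highest ratio of the 7, and the counting intervals of the 2 levels, 87.3 to 93.8 and 68.3 to 72.8 CPM, did not overlap. The isoprenoid steps follow. Idi1, which converts isopentenyl diphosphate to its reactive isomer, stood at 123 CPM (4006 UMIs) and 104 CPM (5530 UMIs), a log2 ratio of 0.24 (0.18 to 0.30). Fdps, which joins the units to farnesyl diphosphate at the branch between sterols and other isoprenoids, stood at 36.3 CPM (1177 UMIs) and 32.9 CPM (1742 UMIs), a log2 ratio of 0.14 (0.03 to 0.25). The gene annotation marks Fdps as overlapping another gene, so its reads may not all be its own.

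The committed sterol steps gave ratios of the same small size. Sqle, the squalene epoxidase and a control point of the pathway, measured 51.8 CPM (1683 UMIs) with TAK-981 and 46.4 CPM (2462 UMIs) with vehicle, a log2 ratio of 0.16 (0.07 to 0.25). Cyp51, the lanosterol demethylase, measured 129 CPM (4187 UMIs) and 114 CPM (6030 UMIs), a log2 ratio of 0.18 (0.12 to 0.24). Msmo1, the methylsterol monooxygenase that acts after it, measured 89.98 CPM (2921 UMIs) and 77.0 CPM (4083 UMIs), a log2 ratio of 0.22 (0.16 to 0.29). In each of these 3 the level with TAK-981 was the higher, with intervals that did not overlap. The regulator Insig1, itself an SREBP target, differed least at full depth, at 35.4 CPM (1150 UMIs) and 34.9 CPM (1851 UMIs), a log2 ratio of 0.02 (-0.09 to 0.13). With every cell thinned to 4000 UMIs, so that depth was equal, the order of the 7 changed: Sqle was highest at 0.37, followed by Msmo1 at 0.28, Idi1 at 0.27, Insig1 at 0.22 and Fdps at 0.20, with Cyp51 and Hmgcs1 lowest, both at 0.19. All 7 were still above 0, but in this 1 random draw, on far fewer UMIs, other genes differed most and least. With all UMIs kept and every cell weighing the same, Hmgcs1 was again highest at 0.33 and Insig1 lowest at 0.11. Scaling by the median ratio of all genes turned the ratio of Insig1 at full depth to -0.04 and left the other 6 above 0, with a median over the 7 of 0.13. Without the limit on the mitochondrial share the median was 0.26.

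**Figure D1:**
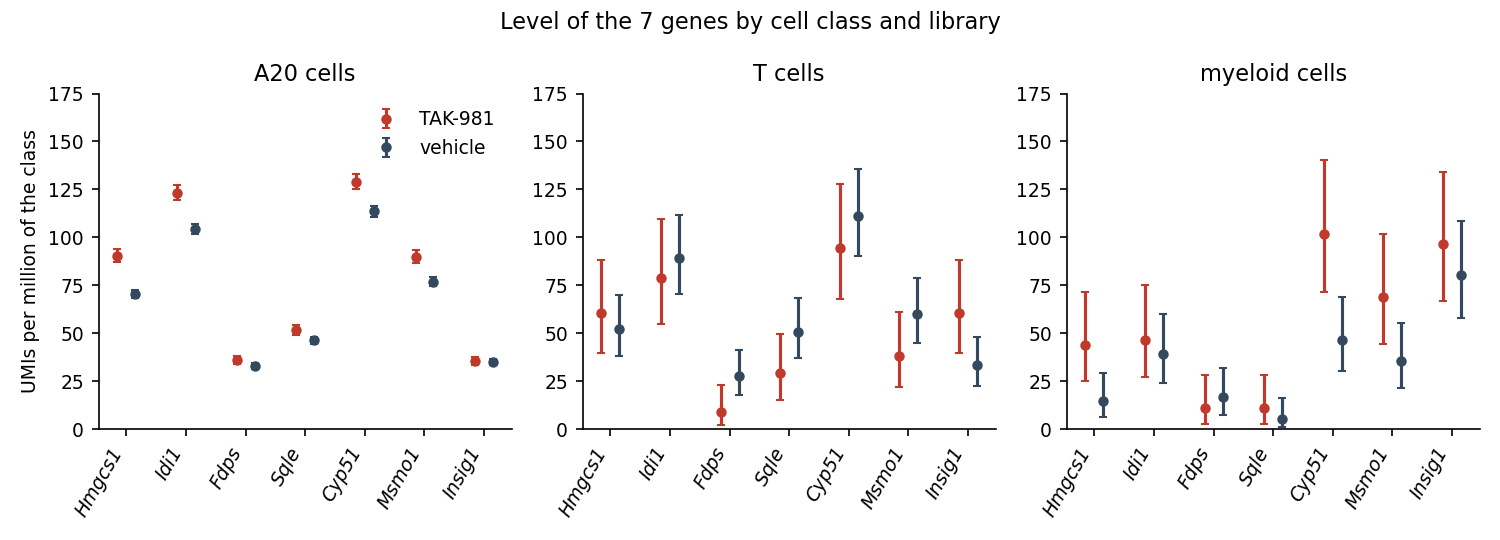
Level of each of the 7 genes in A20 cells, T cells and myeloid cells, in CPM, for the TAK-981 library (red) and the vehicle library (blue), with bars for the 95% Poisson counting interval of 1 library each. In A20 cells the red point lies above the blue one for all 7 genes with short bars, for example 90.5 against 70.6 for Hmgcs1, while the bars of the T and myeloid cells are several times longer.

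Other genes of the pathway did not share the small excess as a group. Of 17 further cholesterol synthesis genes, all measured in A20 cells, 0 were 1.5-fold higher and 0 lower, 8 lay above 0 and 9 below, and their median log2 ratio was -0.01. The counting interval lay above 0 for 4 of them, among these Ggps1, Lbr and Hsd17b7, and below 0 for 2 (Acat1 and Tm7sf2). Fdft1, which makes squalene directly before Sqle, measured 52.0 and 51.9 CPM, a log2 ratio of 0.00 (-0.09 to 0.09). The 17 summed to 617 CPM with TAK-981 and 608 CPM with vehicle, 1.02-fold (1.00 to 1.03), against 1.16-fold for the 7 genes. No test of that difference was possible.

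**Figure D2:**
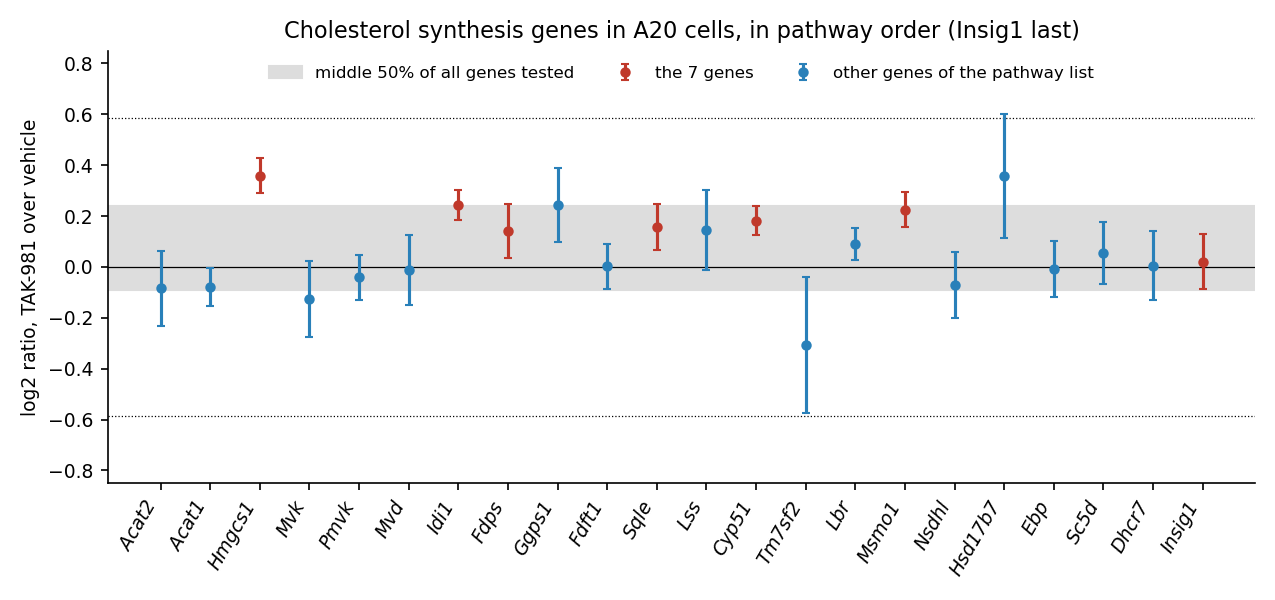
Log2 ratio of TAK-981 over vehicle in A20 cells for the 7 genes (red) and 15 of the 17 other cholesterol synthesis genes (blue), placed in pathway order with Insig1 last. Bars are 95% counting intervals, the grey band holds the middle 50% of all genes measured (-0.09 to 0.24), and the dotted lines mark 1.5-fold. Hmgcs1 at 0.36 and Hsd17b7 at 0.36 lie highest, Tm7sf2 at -0.30 lowest, and no point passes a dotted line.

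Of the regulators and neighbours of the pathway in A20 cells, the uptake and transport genes had the highest median. Srebf2, which encodes SREBP2, measured 77.4 and 71.5 CPM, a log2 ratio of 0.11 (0.04 to 0.19), and of the 11 sterol sensing genes 0 were 1.5-fold higher or lower, with a median of 0.09. In the uptake and transport list, whose 12 genes summed to 1.05-fold (1.02 to 1.09), 10 genes were measured. Their median was 0.29 (5 intervals above 0 and 1 below), with 1 gene higher and 0 lower. The higher one was Osbp, a carrier of sterol between the endoplasmic reticulum and the Golgi, at 10.7 CPM (346 UMIs) and 6.85 CPM (363 UMIs), 1.56-fold (1.34 to 1.81). Of the fatty acid genes that SREBP also drives, 11 of 12 were measured, 0 were 1.5-fold higher or lower, and the median was 0.11. The desaturases Scd1, at a log2 ratio of 0.56 (0.39 to 0.72), and Scd2, at 0.40 (0.32 to 0.49), lay above each of the 7 genes. For the genes of isoprenoid use the median was -0.04 over 8 genes, again with none past 1.5-fold. Of the 5 genes of LXR, the sterol-activated receptor, and efflux, 1 was higher, Nr1h3, on 18 and 15 UMIs with an interval that included 0. Ch25h had 0 UMIs in A20 cells of either library, and the other oxysterol genes were too low to count. By contrast, 15 of the 16 interferon-stimulated genes measured in A20 cells were higher, with a median log2 ratio of 2.22.

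The excess in A20 cells did not rest on the richest cell: without the cell with most UMIs of the 7 genes in each library, the median log2 ratio was again 0.18. In the thinned cells, at least 1 of the 7 genes was seen in 72.4% of A20 cells (exact binomial interval 70.2 to 74.5%) with TAK-981 and in 68.9% (66.9 to 70.9%) with vehicle. These intervals overlapped, and unthinned the shares were 92.0% and 92.7%. Each of the 7 was seen in more thinned cells of the TAK-981 library: Hmgcs1 in 23.4% against 21.9%, Idi1 in 32.6% against 28.8%, and Fdps in 12.8% against 11.5%. Sqle was seen in 17.8% against 14.1%, Cyp51 in 35.0% against 31.0%, Msmo1 in 25.6% against 22.9%, and Insig1 in 12.4% against 10.7%. The intervals of the 2 libraries were apart for Sqle and overlapped for the other 6. No class in these tumours is known to lack these genes, so no background share from free RNA could be read for them.

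Among single A20 cells the genes were unevenly spread in both libraries. The median thinned cell held 1 UMI of the 7 genes together in both libraries, the 90th percentile was 5 in both, and the highest cell held 30 with TAK-981 and 20 with vehicle. The 10% of cells richest in them held 37.1% of these UMIs with TAK-981 and 38.0% with vehicle. The variance over the mean (Fano factor, 1 for pure counting noise) was 3.14 and 2.76. At least 5 of the 7 genes were seen together in 4.85% of TAK-981 and 3.56% of vehicle cells, and at most 1 in 54.4% and 61.9%. No single A20 cell held more than 1.29% of a gene's UMIs, that being Hmgcs1 in the TAK-981 library, with 38 UMIs in 1 cell.

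**Figure D3:**
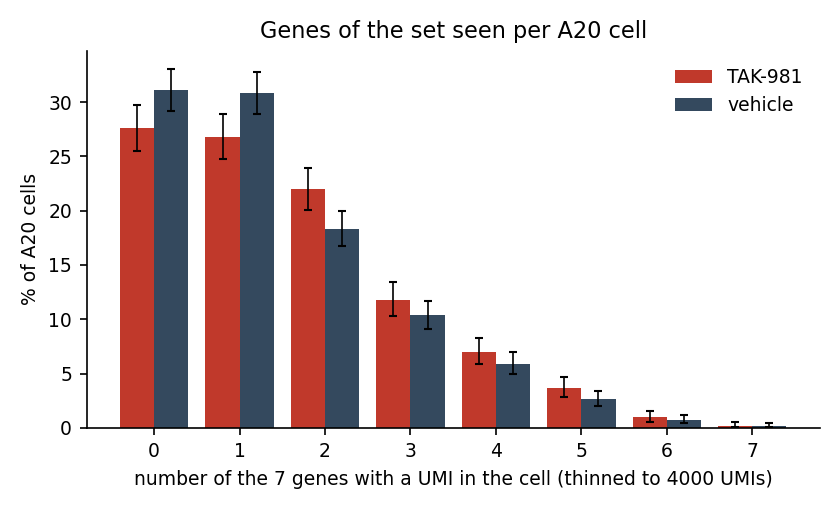
Share of A20 cells (percent) by the number of the 7 genes with at least 1 UMI, after thinning each cell to 4000 UMIs, for the TAK-981 (red) and vehicle (blue) libraries, with exact binomial 95% intervals as bars. Fewer TAK-981 cells show 0 or 1 of the genes (27.6% against 31.1% show 0) and more show 2, at 21.9% against 18.3%.

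The size of the ratio differed between tertiles of summed cell cycle gene UMIs. A20 cells were split into tertiles of their summed S and G2/M gene UMIs, after thinning and with limits set over both libraries (7 and 19 UMIs, with 304 and 380 cells within 1 UMI of a limit). In the lowest tertile the 7 genes summed to 566 CPM with TAK-981 and 452 CPM with vehicle, 1.252-fold (1.21 to 1.30), and in the middle tertile to 582 and 456 CPM, 1.27-fold (1.23 to 1.32). In the highest tertile they summed to 520 and 523 CPM, 0.99-fold (0.96 to 1.03). Thus the levels of the 2 libraries were apart in the 2 lower tertiles and did not differ beyond counting error in the highest. This difference between tertiles was not tested. The highest tertile was not matched between libraries, with cell cycle genes at 6382 CPM with TAK-981 and 5917 CPM with vehicle.

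Every single gene but Fdps had its lowest ratio in the highest tertile. In the highest tertile the log2 ratio was 0.15 for Hmgcs1, 0.13 for Fdps, -0.03 for Sqle, -0.03 for Cyp51, -0.04 for Msmo1, -0.05 for Idi1 and -0.20 for Insig1. In the same order of genes the ratios were 0.49, 0.37, 0.17, 0.29, 0.28, 0.41 and 0.08 in the lowest tertile. They were 0.41, 0.09, 0.35, 0.31, 0.37, 0.47 and 0.19 in the middle tertile, so that Fdps was lowest there, and Hmgcs1 and Fdps were highest in the lowest tertile and the other 5 in the middle one. Within the vehicle library, Idi1 was 1.41-fold (1.31 to 1.51) and Fdps 1.43-fold (1.255 to 1.63) higher in the highest than in the lowest tertile. Within the TAK-981 library the values were 1.03-fold for Idi1 and 1.21-fold for Fdps, and Msmo1 was at 0.76-fold (0.70 to 0.84). The tertiles were not filled alike: 40.0% of TAK-981 and 31.8% of vehicle A20 cells were in the lowest. The 20 S phase genes had a median log2 ratio of -0.22 in A20 cells, with 18 below 0, and the 20 G2/M genes one of -0.06.

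With S genes alone, the level of the 7 genes went up from the lowest to the highest tertile in both libraries, from 491 to 651 CPM with TAK-981 and from 411 to 584 CPM with vehicle. With G2/M genes alone it was lowest in the highest tertile, at 616, 588 and 472 CPM with TAK-981 from the lowest to the highest, and at 498, 530 and 419 CPM with vehicle. The summed ratio stayed above 1 in every such tertile: 1.20, 1.28 and 1.11 by S genes, and 1.24, 1.11 and 1.13 by G2/M genes. These splits, and the next ones by mitochondrial share and depth, were added after the data had been seen.

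Split by mitochondrial share or depth, the summed ratio was above 1 in each tertile, but not that of every gene. From the lowest to the highest mitochondrial tertile the 7 genes summed to 472, 571 and 612 CPM with TAK-981 and to 448, 483 and 554 CPM with vehicle, ratios of 1.05 (1.02 to 1.09), 1.18 (1.15 to 1.22) and 1.10 (1.06 to 1.15). In the lowest mitochondrial tertile only Hmgcs1, at a log2 ratio of 0.20, and Idi1, at 0.17, had intervals above 0. There Fdps (-0.02), Sqle (-0.10), Cyp51 (-0.01) and Insig1 (-0.03) were below 0, and Msmo1 was at 0.10. The level was higher in cells with more mitochondrial RNA in both libraries, and more TAK-981 cells lay in that tertile (750, against 565 of the vehicle library). By UMIs per cell the ratios were 1.12, 1.30 and 1.11. By interferon-list UMIs they were 1.15 in cells with none, 1.16 in cells with 1 or 2 and 1.14 in cells with 3 or more. Cells with none were 26.5% of TAK-981 and 37.1% of vehicle A20 cells, so most vehicle cells also held such a UMI. The part of the interferon response in the ratio was not tested.

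**Figure D4:**
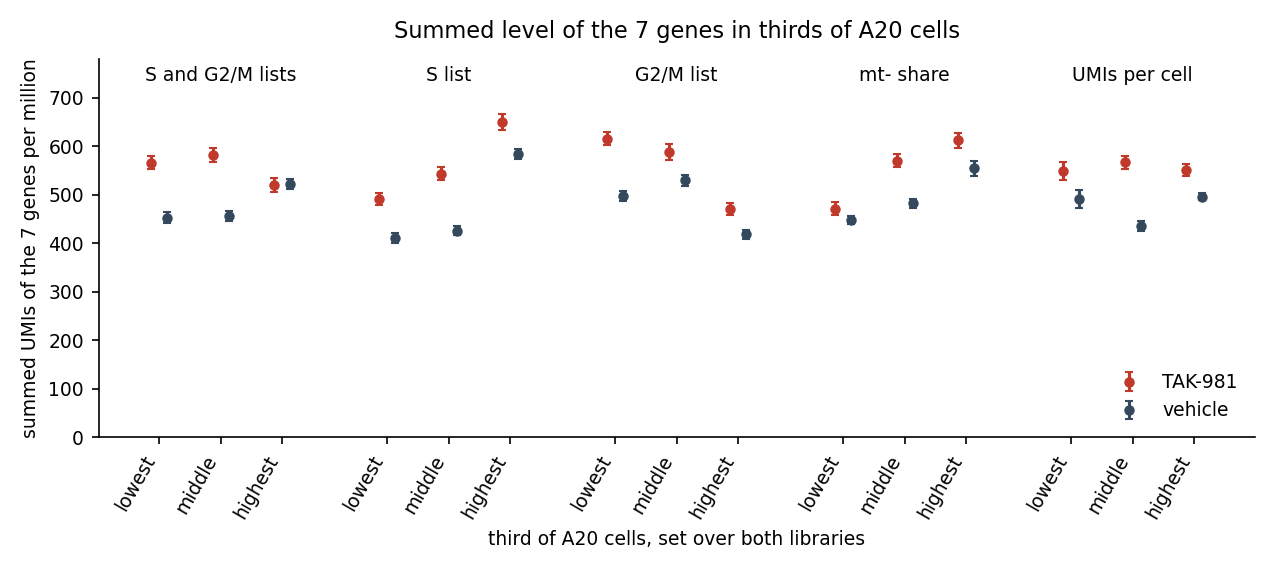
Summed CPM of the 7 genes in tertiles of A20 cells, cut by cell cycle genes, S genes, G2/M genes, mitochondrial share and UMIs per cell, for the TAK-981 (red) and vehicle (blue) libraries, with 95% Poisson counting intervals. The red point lies above the blue one in 14 of the 15 tertiles, the exception being the highest cell cycle tertile, at 520 against 523.

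The 7 genes varied together across A20 cells. In thinned cells the Pearson r of each gene with the sum of the other 6 was, in the TAK-981 and the vehicle library, 0.35 and 0.33 for Hmgcs1, 0.34 and 0.33 for Cyp51, 0.34 and 0.32 for Msmo1, and 0.33 and 0.30 for Idi1. It was 0.29 and 0.25 for Sqle, 0.20 and 0.22 for Insig1 and 0.17 and 0.12 for Fdps. Over the 21 pairs r ran from 0.06 to 0.27 with TAK-981 and from 0.04 to 0.25 with vehicle. These are descriptions over 1754 and 2191 cells that share a library and, after thinning, a depth, and sparse counts pull such values towards 0. Among 5891 other genes seen in at least 5% of thinned A20 cells, the lower of the 2 libraries' r with the sum had a median of 0.01 and a 95th percentile of 0.08.

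Among the 10 other genes with the highest lower r were Pdia3 (0.28), Scd2 (0.27), Hspa5 (0.26), Calr (0.26), Hsp90b1 (0.25), Pydc4 (0.23), Pdia6 (0.22) and Fdft1 (0.22). Fdft1 is on the list of other cholesterol synthesis genes, and Scd2, a fatty acid desaturase, is on the list of fatty acid genes driven by SREBP. Pdia3, Hspa5, Calr, Hsp90b1 and Pdia6 are chaperones and disulphide isomerases of the endoplasmic reticulum, on no list chosen here. Pydc4 belongs to an interferon-inducible family with close copies, such as Pydc3, so its count is uncertain. At their own depth 9 of these 10 were again among the first 10.

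In myeloid cells Hmgcs1, Cyp51 and Msmo1 were higher with TAK-981, on far fewer counts than in A20 cells, and the intervals of the other 4 genes included 0. The 7 summed to 380 CPM (138 UMIs in 39 cells) with TAK-981 and 240 CPM (128 UMIs in 44 cells) with vehicle, 1.59-fold (1.24 to 2.03). Of the 7, 5 had enough UMIs, and 3 of these were at least 1.5-fold higher and 0 lower, while 18.0% of the 4533 genes measured in myeloid cells were higher and 21.4% lower. The median log2 ratio of the 5 was 0.95, against -0.06 over all genes measured.

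Hmgcs1 measured 44.1 CPM (16 UMIs) with TAK-981 and 14.98 CPM (8 UMIs) with vehicle, 2.94-fold (1.19 to 7.94). Cyp51 measured 102 CPM (37 UMIs) and 46.8 CPM (25 UMIs), 2.18-fold (1.28 to 3.77). Msmo1 measured 68.9 CPM (25 UMIs) and 35.6 CPM (19 UMIs), 1.94-fold (1.02 to 3.72). These 3 intervals excluded 1. Idi1, with 17 and 21 UMIs, had a log2 ratio of 0.25 (-0.76 to 1.245), and Insig1, with 35 and 43 UMIs, one of 0.26 (-0.43 to 0.94). Fdps, with 4 and 9 UMIs and a log2 ratio of -0.61, and Sqle, with 4 and 3 UMIs, were under the minimum. In thinned cells Hmgcs1 was seen in 10 of 39 myeloid cells (25.6%, 13.04 to 42.1%) and in 1 of 44 (2.27%, 0.0575 to 12.0%). At their own depth the intervals overlapped, with 11 of 39 (28.2%, 15.0014 to 44.9%) and 7 of 44 (15.9%, 6.64 to 30.1%), and thinned to 2000 UMIs it was seen in 3 of 39 and 1 of 44. Single cells weighed more here than in A20 cells, since 1 cell held 25% of the Hmgcs1 UMIs in each library, yet without the cell richest in the 7 genes Hmgcs1, Cyp51 and Msmo1 still had log2 ratios of 1.56, 1.04 and 0.88.

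Most other cholesterol synthesis genes that could be measured in myeloid cells were also higher, but the related lists were mixed. Of the 17 other cholesterol synthesis genes only 6 had enough UMIs. Of these, 5 were at least 1.5-fold higher and 0 lower, with a median log2 ratio of 0.98. Over all genes measured in myeloid cells, 18.0% were higher and 21.4% lower. Of the 4 fatty acid genes measured, 0 were higher and 1 lower, with a median of -0.14. Of the 4 sterol sensing genes measured, 0 were higher or lower, with a median of 0.01. For uptake and transport 3 of 5 were higher and 1 lower, and for isoprenoid use 1 of 4 was higher and 0 lower. Srebf2 itself, with 12 and 17 UMIs, had a log2 ratio of 0.05 (-1.14 to 1.21), and Ch25h had 3 and 5 UMIs. In the LXR and efflux list 4 of 5 genes were measured and 3 of these were lower, with a median of -1.55. They were Apoe, a lipoprotein carrier of cholesterol (129 and 385 UMIs, log2 ratio -1.02, -1.32 to -0.73), Abca1, the cholesterol exporter, and Nr1h3, which encodes LXR alpha (each 4 and 25 UMIs, log2 ratio -2.09, -4.07 to -0.55). A minimum of 20 UMIs favours genes that were high in 1 library, so the counts over the genes that passed describe these libraries only.

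Markers of myeloid and other cell types differed between the libraries within the myeloid class. The 8 myeloid markers measured summed to 36213 and 36547 CPM, most of it Lyz2, but C1qa, a complement gene of tissue macrophages, had 0 UMIs with TAK-981 and 100 with vehicle (187 CPM). The macrophage markers Adgre1, at 35.8 and 86.2 CPM (13 and 46 UMIs), and Cd68, at 438 and 736 CPM, were lower with TAK-981 as well. The other markers of this list were mixed. Cd14 (2163 and 2633 CPM) and Csf1r (240 and 283 CPM) were lower, and Fcer1g (3119 and 2545 CPM) was higher. Lyz2 (27436 and 27277 CPM) and Tyrobp (2781 and 2800 CPM) were near equal. All 8 B cell markers were found in the myeloid class, at a summed 204 CPM with TAK-981 and 161 CPM with vehicle, against 3201 and 3062 CPM in A20 cells. Leaving out the 2 and 2 myeloid cells with at least 5 UMIs of Cd79a, Cd79b, Jchain and Mzb1 together gave log2 ratios of 1.37 for Hmgcs1 (12 and 7 UMIs, -0.09 to 2.95), 0.99 for Cyp51 (0.20 to 1.80) and 1.15 for Msmo1 (0.20 to 2.13). The 3 neutrophil markers summed to 212 CPM with TAK-981 and 48.7 CPM with vehicle, and the 4 dendritic markers to 41.3 and 105 CPM, with Xcr1 and Siglech at 0 in both. The part of these marker differences in the values of the 7 genes and of the LXR and efflux genes was not tested.

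In T cells the 7 genes gave no common direction. They summed to 371 CPM (165 UMIs in 45 cells) with TAK-981 and 425 CPM (367 UMIs in 60 cells) with vehicle, 0.87-fold (0.72 to 1.05). All 7 had enough UMIs, 1 was at least 1.5-fold higher and 3 at least 1.5-fold lower, against 12.6% and 14.9% of the 6013 genes measured in T cells. The median log2 ratio was -0.24, against -0.04 over all genes measured.

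Insig1 was the higher one, at 60.7 CPM (27 UMIs) with TAK-981 and 33.6 CPM (29 UMIs) with vehicle, 1.81-fold (1.03 to 3.16). Fdps was the lowest, at 8.99 CPM (4 UMIs) and 27.8 CPM (24 UMIs), a log2 ratio of -1.63 (-3.62 to -0.09). Sqle, with 13 and 44 UMIs, had a log2 ratio of -0.80 (-1.82 to 0.12), and Msmo1, with 17 and 52 UMIs, one of -0.66 (-1.54 to 0.16). Only the intervals of Insig1 and Fdps excluded 0. The other 3 were nearer to 0: Hmgcs1 at 0.22 (27 and 45 UMIs, -0.53 to 0.94), Idi1 at -0.18 (35 and 77 UMIs, -0.80 to 0.41) and Cyp51 at -0.24 (42 and 96 UMIs, -0.80 to 0.30). Of the 12 other cholesterol synthesis genes measured 2 were higher and 4 lower, against 12.6% and 14.9% of all genes measured. Of these 12 counting intervals 1 lay above 0 and 0 below. All 17 genes of that list summed to 0.95-fold (0.82 to 1.10).

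B cell transcripts went along with the lower values in T cells. The 8 B cell markers summed to 679 CPM in the T cells of the TAK-981 library, 21.2% of the level in A20 cells, and to 1093 CPM, 35.7%, in those of the vehicle library. In all, 5 of the 45 and 13 of the 60 T cells held at least 5 UMIs of the 4 B cell genes named above. Without them, in 40 and 47 T cells, the 3 lower calls became 1 and the median log2 ratio turned to 0.32 over the 6 genes still measured. Fdps then had 3 and 5 UMIs (-0.06, -2.75 to 2.30), Sqle 6 and 15 (-0.65, -2.30 to 0.80) and Msmo1 11 and 16 (0.14, -1.12 to 1.33). Insig1 remained at 0.81 (22 and 20 UMIs, -0.13 to 1.76), and all 7 intervals then included 0. Thinning to 4000 UMIs per cell left only 3 of the 7 genes with enough UMIs, and their median was 0.28. Thinned Fdps at -1.17 and Sqle at -0.39 stayed below 0 but were under the minimum.

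**Figure D5:**
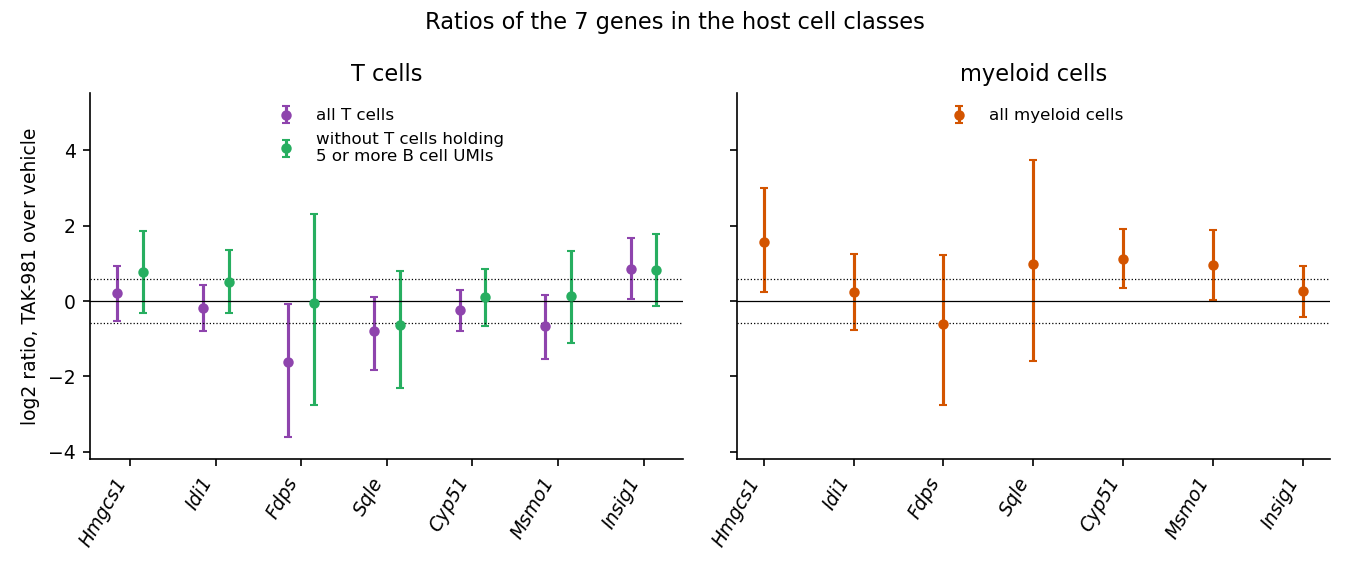
Log2 ratio of TAK-981 over vehicle for the 7 genes in T cells (purple), in T cells without those holding at least 5 B cell UMIs (green) and in myeloid cells (orange), with 95% counting intervals; dotted lines mark 1.5-fold. The purple point of Fdps at -1.63 moves to -0.06 without the B cell UMI-rich T cells, and in myeloid cells Hmgcs1 (1.56), Cyp51 (1.12) and Msmo1 (0.95) lie above 0 with their whole bars.

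Across classes Insig1 was ordered differently from the enzymes. In myeloid cells its level was 272% of that in A20 cells with TAK-981 (counting interval 189 to 381%) and 231% with vehicle (166 to 312%). In T cells it was 171% (112 to 251%) with TAK-981 and 96.3% (64.3 to 139%) with vehicle, so that T and A20 cells did not differ beyond counting error in the vehicle library. The enzymes were highest in A20 cells or not distinct from them. With vehicle, the myeloid level was 21.2% of the A20 level for Hmgcs1, 37.7% for Idi1, 51.3% for Fdps, 12.1% for Sqle, 41.2% for Cyp51 and 46.2% for Msmo1, each with an interval wholly under 100%. With TAK-981, Cyp51 at 79.1% (55.6 to 109%) and Msmo1 at 76.6% (49.5 to 113%) no longer differed from A20 cells beyond counting error, while the other 4 enzymes, from 21.3% for Sqle to 48.7% for Hmgcs1, were still lower. In T cells of the vehicle library only Hmgcs1, at 73.9% (53.8 to 99.1%) of the A20 level, lay below A20 cells beyond counting error. In the TAK-981 library all 6 enzymes did, from 24.8% for Fdps to 73.2% for Cyp51. These are levels per UMI of a class, and the B cell transcripts in the T cells were not subtracted.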

How the data were processed

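For each library the authors deposited a sparse matrix of raw UMI counts, genes by barcodes, in whole numbers, per the file headers. Cell Ranger 2.1.1 and Seurat 2 are listed in the submitters' processing notes, without a role, and the build used for counting was not stated there. The lowest UMI total of a barcode was 4670 (TAK-981) and 5965 (vehicle), so shallower barcodes had been left out before deposit, and totals were 37470319 and 57471750 UMIs.

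Counts were summed per class and library in Python 3.11.15 with pandas 2.3.3, numpy 2.4.6 and scipy 1.17.1, and drawn with matplotlib 3.10.9. Doublets were not called. Host cells with B cell UMIs were left out as an alternative, and no cell met both the T and the myeloid rule. Thinning drew 4000 UMIs per cell without replacement, and no cell was shallower. Correlations used log2(UMIs + 1) of thinned cells. The scripts for ratios and intervals were checked on simulated class sums with Poisson counting noise only. That check holds no variation between cells or mice, so it does not show how well the intervals hold for these data.

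The members and lists were chosen with earlier results of these data known. Named beside the 7 genes were pathway-list genes past 1.5-fold in A20 cells with an interval that excluded 1, the genes Srebf2, Fdft1 and Ch25h whatever their value, and the 10 other genes with the highest lower r. Some genes these rules name are not reported here. Hsd17b7, Tm7sf2, Ggps1, Lbr, Acat1, Nr1h3, Abca1, Apoe, Scd1, C1qa, Adgre1, Cd68, Cd14, Csf1r, Fcer1g and Tyrobp were named after their values were seen. Promoters came from RefSeq (GRCm38.p6), used for sequence only. The printed stretches stop short of any annotated transcript. The windows searched for motifs were not cut there, and those of Idi1, Cyp51, Msmo1 and Insig1 ran into annotated transcripts. The alternatives were other scalings, equal weight per cell, thinning, limits on mitochondrial share, UMIs and markers, and leaving out cells.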

Additional observations from a re-analysis of the deposited data

Results flagged for a closer look

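Among the 7 genes, in 2 cases the log2 ratios of a gene had opposite signs in 2 cell classes with counting intervals that did not overlap, and neither difference was tested between samples. Fdps was lower in T cells and slightly higher in A20 cells, a difference of -1.77, which rests on 4 UMIs in the TAK-981 T cells and on T cells that hold B cell transcripts. Cyp51 was higher in myeloid cells and slightly lower in T cells, a difference of -1.36 for T minus myeloid cells. Without the T cells holding at least 5 B cell UMIs, Cyp51 in T cells was at 0.11 (-0.65 to 0.85), with the sign of the myeloid value and an interval that overlapped it.

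Barcodes outside the 3 classes carried the genes too. In the 376 TAK-981 and 124 vehicle barcodes with a mitochondrial share of 10% or more, the 7 genes summed to 1010 and 835 CPM, a log2 ratio of 0.27 (0.16 to 0.39). Both levels lay above those of A20 cells (556 and 480 CPM). Cyp51 had a log2 ratio of 0.42 there, Msmo1 one of 0.42 and Sqle one of 0.35, with Cyp51 at 345 and 258 CPM. In the 182 and 160 kept barcodes of none of the 3 classes, the 7 genes summed to 398 and 340 CPM, a log2 ratio of 0.23, and Hmgcs1 had one of 0.79 (151 and 99 UMIs).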

How the results depend on the processing

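In A20 cells, 74 of 77 single-gene values under 11 alternatives kept their sign. The median log2 ratio ranged from 0.13 to 0.29, and moved from 0.18 to 0.26 with no limit on the mitochondrial share and to 0.29 in the lowest cell cycle tertile. At the lower fold limit tried, 1 gene counted as higher. The T cell values were the least stable. Their median turned to 0.32 without cells holding at least 5 B cell UMIs and to 0.31 without those holding at least 2, a limit chosen after seeing the data. The number of higher genes was then 2 in both, and that of lower genes 1 in both, against 0 and 1 at 2-fold. After thinning they were 0 and 0, but only 3 genes met the UMI minimum, and Fdps (-1.17) was not among them. Msmo1 turned to 0.64 after thinning, to 0.14 and to 0.18 without those cells. In myeloid cells 54 of 55 values kept their sign; 1 gene was higher at a minimum of 50 UMIs, and 1 was lower with no minimum. The cause of these shifts was not tested. T and myeloid values rest on 3 to 96 UMIs per gene and library, which limits them to large differences. The share of cells with any of the 7 genes followed depth: thinned to 2000 UMIs it was 53.8% and 49.5% of A20 cells, 26.7% of TAK-981 and 46.7% of vehicle T cells, the reverse of the order at 4000 UMIs (64.4% and 60%), and 43.6% of TAK-981 myeloid cells. At their own depth it was 92.0% and 92.7% of A20 cells, 77.8% and 86.7% of T cells, and 84.6% and 86.4% of myeloid cells. The median r of a gene with the other 6 was 0.53 and 0.55 at their own depth, against 0.33 and 0.30 thinned. No paired analysis was possible because each arm has 1 library.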
